A study of Mus musculus with 18 samples.

Results

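Whole brains of male mice labelled ERbetaKO were compared with whole brains of wild type males across all genes on the array. The comparison took the 3 arrays titled as ERbetaKO male brains and the 3 titled as wild type male brains, 6 of the 18 arrays of the series, and 13072 genes that could be tested of 18193 with a probe set. All mice of the series were 8 weeks old and of the C57BL/6 strain, and the groups differed in genotype (wild type, ERbetaKO or ERalphaKO) and sex, with 3 arrays in each. RNA of whole brains was measured on Affymetrix Mouse 430 2.0 arrays, which read each transcript with probe sets near its 3-prime end. Female wild type and ERbetaKO-labelled brains and male ERalphaKO-labelled brains were used only to set the male difference beside theirs. The labels do not give the targeting allele of either knockout, do not say how the wild type mice were related to the knockout mice, and do not say that each array came from a separate animal. The p-values therefore measure the spread between these samples, which may be technical.

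Estrogen receptor beta, encoded by Esr2, is a nuclear receptor that binds estradiol and acts on transcription directly at estrogen response elements or through other DNA-bound factors such as AP-1. In the brain it is known from restricted groups of neurons, among them cells of the hypothalamus, amygdala, hippocampus and cortex. Immediate early genes, which make up most of the largest rises described here, are transcribed within minutes of synaptic activity or growth factor signals from factors already present in the cell, such as CREB and serum response factor, and need no new protein synthesis. Their products, among them the AP-1 proteins of the Fos and Jun families, then act on later genes, while phosphatases such as Dusp1 switch the signal off.

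The targeted gene was examined before any other. Esr2 was read by a single probe set, and its signal was 22.3, 19.8 and 50.8 in the wild type males and 374.3, 406.6 and 199.4 in the ERbetaKO-labelled males. All ERbetaKO-labelled values lay above all wild type values, which is the opposite of what the label says of this gene. Means were 326.8 ± 111.5 (SD, n = 3) and 31.0 ± 17.2 (SD, n = 3), with an exact two-sided permutation p of 0.1, the smallest that 3 against 3 arrays can give. On the log2 scale used here, log2(signal + 63.63), the difference was 2.02 ± 0.23 (SE, limma's unadjusted p = 1.39e-07). In that fit, made without the filter on low signal, the adjusted p was 0.000421, and it was 0.0553 with only the groups compared and 0.0549 without any array with Pcp2 under 500. Esr2 was also higher in the ERbetaKO-labelled females, at 242.5, 242.7 and 160.4 against 28.2, 28.7 and 22.5 in wild type females, and it was 19.8, 18.2 and 31.9 in the ERalphaKO-labelled males. Wild type signals lay under the added constant, so this size depends on it and was 3.42 with a constant of 1. The constant shrinks the differences of all dim genes. Where the probes lie relative to any deleted part of the gene is not known from the sources used here, so the probe set does not check the deletion, and the arrays are called ERbetaKO-labelled throughout. The brightest Esr1 probe set, for estrogen receptor alpha, gave 138.4 ± 29.8 in wild type and 195.8 ± 30.9 in ERbetaKO-labelled males, a log2 difference of 0.36 (exact permutation p = 0.1). The other Esr1 probe sets gave -0.66 and -0.01 (exact permutation p = 0.2 and 1), so the 3 probe sets did not run in 1 direction.

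Xist lay between 226.3 and 448.8 in the 9 male arrays and between 3916 and 5074 in the 9 female arrays, so every array matched its labelled sex. Array signals correlated at 0.954 to 0.982 within the male groups and at 0.939 to 0.968 between them. The dissected tissue differed from array to array. Pcp2, the defining Purkinje cell marker, gave 2104, 10790 and 179.1 in the wild type males and 225.2, 1525 and 1306 in the ERbetaKO-labelled males. Growth hormone (Gh), a pituitary product, gave 9308, 1110 and 5917 against 92.5, 111.0 and 109.1. Ttr, the main choroid plexus product, was 836.7 in wild type replicate 3 and between 12052 and 19405 in the other 5 arrays. The ratio of 3-prime to 5-prime signal of the Actb control probe sets, a measure of RNA integrity and labelling, was 1.18 to 1.23 in wild type and 1.36 to 1.47 in ERbetaKO-labelled males (exact permutation p = 0.1), while that of Gapdh was 0.755 ± 0.0115 against 0.761 ± 0.00569 (SD, n = 3 each, exact permutation p = 0.6). The median signal of an array was 178.3 to 192.7 in wild type and 201.5 to 216.3 in ERbetaKO-labelled males.

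In the ERbetaKO-labelled males 77 genes rose and 154 fell, a total of 231 genes past an adjusted p of 0.05 (1.77% of the 13072 tested, 0.589% higher and 1.18% lower). At an unadjusted p under 0.05 there were 2671 genes (20.4%). Adjusted p-values here and below come from limma with Benjamini-Hochberg adjustment over all genes tested. Immediate early genes, among them Arc, Egr2 and Fos, made up most of the 12 largest rises, which also held Gm13306, Chrm3, Sf3b3 and Kcnh7, and the largest falls were those of Tmem18, Wdfy1 and Clec2l. The 12 largest rises and 12 largest falls were taken only from called genes whose groups did not overlap, so their lack of overlap follows from the choice. Most changes were modest. The median size was 0.67 on the log2 scale for the rises and 0.56 for the falls, and 18 rises and 15 falls exceeded 2-fold. In bulk tissue, fewer cells of a type and less RNA per cell cannot be told apart.

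**Figure D1:**
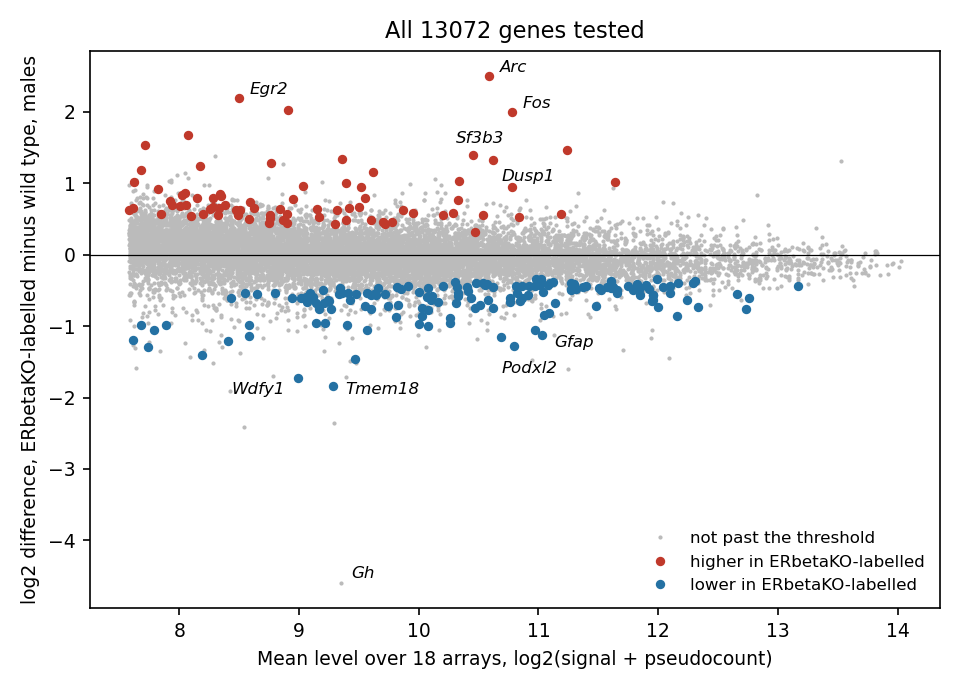
Difference between ERbetaKO-labelled and wild type males (vertical axis, log2) against the mean level of each gene over all 18 arrays (horizontal axis, log2). Red and blue points are the 77 genes that rose and the 154 that fell; Gh lies lowest at -4.59 but did not pass the test (adjusted p = 0.207).

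Rises and falls differed in brightness. Genes that rose had a median wild type signal of 298.9, genes that fell 1631, and all tested genes 640.2. When the tested genes were ordered by mean signal and cut into 5 equal groups, the median log2 difference was 0.15 in the dimmest group and -0.08 in the brightest. There were 21 rises and 6 falls in the dimmest group, and 6 rises and 69 falls in the brightest. The same medians were 0.06 and -0.04 for ERbetaKO-labelled females against wild type females. The balance moved with the scaling. Scaling arrays to a common median in place of a common trimmed mean moved the median of all genes by -0.18 and gave 60 rises and 1396 falls, among which 204 of the 231 genes were still called. All 231 genes kept their sign under that scaling and under quantile normalization, which gave 73 rises and 141 falls.

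The number of calls depended on single arrays. Leaving out wild type replicate 1, 2 or 3 gave 127, 57 or 71 calls, of which 99, 47 or 57 were among the 231. Leaving out ERbetaKO-labelled replicate 1, 2 or 3 gave 26, 47 or 295 calls, of which 23, 41 or 158 were among them. Without both wild type replicate 3 and ERbetaKO-labelled replicate 1, whose Pcp2 lay under 500, 10 genes were called. The 231 genes kept their sign in all of these fits. For a gene whose groups do not overlap, leaving out arrays cannot change the sign. The calls of 16 genes held whichever of the 6 arrays was left out. Fos, Egr2, Dusp1, Pla2g4e and Ube2n rose in all of these fits, and Tmem18, Podxl2, Mboat2, Rnf208, Zfp36l2, Vegfb, Tmcc2, Mrpl46, Dctn2, Tmbim6 and Anapc11 fell in all of them. Every other call was lost with at least 1 array left out. Of the 12 largest rises, 3 were still called without ERbetaKO-labelled replicate 1 and 5 without replicate 2 or wild type replicate 2; of the 12 largest falls, 4, 5 and 4 were. The part of tissue makeup and RNA quality in the calls was not tested beyond these fits and the covariate fits given in the closing section.

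Immediate early transcription factors were higher as a group. Their list, like the others, was chosen with earlier results of these data known. Of 17 tested members, 10 rose (0.589% of all tested genes did) and none fell. In 15 of them the 3 ERbetaKO-labelled values lay wholly above the 3 wild type values (13.1% of all tested genes). The median log2 difference of the list was 1.02, against 0.00 over all genes. Summed over the list, signal was 12864 to 16854 in the wild type arrays and 30880 to 32895 in the ERbetaKO-labelled arrays. The median lay between 0.85 and 1.16 under median and quantile scaling, with the Actb ratio or a cerebellar score as covariate, and with any wild type array or ERbetaKO-labelled replicate 1 or 2 left out. The number called did not stay the same. It fell from 10 to 4 with the Actb ratio as covariate, to 2 without wild type replicate 2 or ERbetaKO-labelled replicate 1 or 2, to 5 without wild type replicate 3, and rose to 14 with the cerebellar score.

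Several of these genes share a short promoter element. The windows below are the 250 bases before the annotated start in RefSeq (build GRCm38.p6). Their genes are examples of those that rose and hold the element, and were not taken by rank. Arc, the largest rise, and Klf10 had no window. Capitals mark TGACG or its reverse complement CGTCA, the core of the cAMP response element bound by CREB. The motifs were chosen after the values were seen. Fos lies at chr12:85473640-85473889 (plus strand), Npas4 at chr19:4989972-4990221 (minus strand), Dusp1 at chr17:26508473-26508722 (minus strand) and Nr4a1 at chr15:101266596-101266845 (plus strand).
Fos: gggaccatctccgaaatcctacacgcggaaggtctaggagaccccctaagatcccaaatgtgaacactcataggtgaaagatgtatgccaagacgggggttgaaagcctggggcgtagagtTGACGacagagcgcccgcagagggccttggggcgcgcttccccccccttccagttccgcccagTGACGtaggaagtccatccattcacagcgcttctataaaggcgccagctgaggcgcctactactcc
Npas4: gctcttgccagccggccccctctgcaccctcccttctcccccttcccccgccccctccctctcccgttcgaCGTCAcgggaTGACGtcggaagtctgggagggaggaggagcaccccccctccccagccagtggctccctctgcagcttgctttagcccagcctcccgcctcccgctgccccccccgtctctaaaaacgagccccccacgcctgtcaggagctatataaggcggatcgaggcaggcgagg
Dusp1: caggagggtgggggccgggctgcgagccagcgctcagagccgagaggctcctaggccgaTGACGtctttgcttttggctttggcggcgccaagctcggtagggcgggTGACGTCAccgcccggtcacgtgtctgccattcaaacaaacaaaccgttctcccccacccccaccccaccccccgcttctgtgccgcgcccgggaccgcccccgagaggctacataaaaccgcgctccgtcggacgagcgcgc
Nr4a1: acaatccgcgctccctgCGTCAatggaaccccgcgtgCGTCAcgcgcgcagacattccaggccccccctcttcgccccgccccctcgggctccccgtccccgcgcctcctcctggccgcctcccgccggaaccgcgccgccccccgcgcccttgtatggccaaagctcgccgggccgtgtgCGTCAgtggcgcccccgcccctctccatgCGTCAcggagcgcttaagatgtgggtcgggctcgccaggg
In Fos the core stood 129 and 66 bases before the start, and in Nr4a1 it stood at 4 places, from 233 to 40 bases before it. The Dusp1 window held 3 matches, of which a pair overlapped in the full palindrome TGACGTCA.

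Across the activity-induced and feedback genes that rose, 10 of 11 with a promoter window held the core on either strand within 250 bases before to 50 after a start (90.9%). The share was 56.0% for the 25 tested members of the same lists that did not pass the threshold, 34.1% for the 10524 tested genes with a window, and 23.0% for all 27025 RefSeq genes with a window. The genes that rose as a whole held it in 37.7% of cases and the genes that fell in 29.5%. A CArG box, the element bound by serum response factor, was found in Egr2 alone among the 11 activity-induced and feedback genes that rose. Among the 25 members that did not pass, Dusp5 held it (4.0%). The share was 1.56% for tested genes and 1.81% for all RefSeq genes with a window. Sites outside the window were not read. The Egr2 box is shown in capitals in the window before the upstream-most of the Egr2 starts that hold it, at chr10:67537316-67537565 (plus strand).
Egr2: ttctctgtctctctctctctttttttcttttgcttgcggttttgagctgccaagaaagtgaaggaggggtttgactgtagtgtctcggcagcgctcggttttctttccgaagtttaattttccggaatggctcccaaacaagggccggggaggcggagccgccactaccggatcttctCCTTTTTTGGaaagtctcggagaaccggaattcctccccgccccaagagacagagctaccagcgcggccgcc
The palindromic estrogen response element, GGTCANNNTGACC, was found in none of the 61 risers and none of the 122 fallers with a window, and in 0.074% of all RefSeq genes with a window. These matches describe letters in a short window and do not show binding.

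Fos, which pairs with Jun proteins in AP-1, had the smallest adjusted p among the rises. Its signal was 816.0, 466.0 and 799.9 in the wild type males and 2583, 2911 and 3226 in the ERbetaKO-labelled males. The lowest ERbetaKO-labelled value was above the highest wild type value, and the log2 difference was 2.00 ± 0.17 (SE, adjusted p = 9.21e-06). Fosb, its close relative, went from 215.8, 126.5 and 204.6 to 620.4, 552.6 and 422.5, again without overlap (1.28 ± 0.30, adjusted p = 0.0421). Junb, an AP-1 partner, went from 446.3, 250.6 and 435.6 to 978.4, 1049 and 1051 (1.34 ± 0.25, adjusted p = 0.0191). Wild type replicate 2 was the lowest of all arrays for each of the 3 genes. Jun itself, named after its values were seen, did not pass, at 1520, 1334 and 1235 against 1406, 1505 and 1407 with overlapping groups (0.08 ± 0.11, adjusted p = 0.707).

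Among the zinc finger factors, Egr2 rose most. It was dim in the wild type males, at 119.7, 76.8 and 112.3, and bright in the ERbetaKO-labelled males, at 644.0, 681.2 and 753.9. The groups did not overlap, the log2 difference was 2.19 ± 0.23 (SE, adjusted p = 0.000202), and the other Egr2 probe set was also higher at an unadjusted p under 0.05. Egr4 went from 464.7, 409.1 and 524.1 to 1087, 1177 and 1086 (1.16 ± 0.22, adjusted p = 0.02). Egr1, named after its values were seen, was the brightest of the family and lay just outside the threshold. Its signals were 5373, 4836 and 6673 against 8985, 10539 and 10471, without overlap (0.83 ± 0.21, adjusted p = 0.0502). Klf10, a factor also induced by transforming growth factor beta and likewise named after its values were seen, went from 403.9, 406.0 and 379.6 to 829.1, 933.7 and 817.6 (1.00 ± 0.20, adjusted p = 0.0221).

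Npas4, a neuronal factor induced by calcium entry, was near the dim end of the wild type arrays, at 107.0, 29.2 and 112.6. It reached 409.2, 336.3 and 419.0 in the ERbetaKO-labelled males, and no value of either group lay within the other (1.68 ± 0.31, SE, adjusted p = 0.0195). Nr4a1, an orphan nuclear receptor, went from 1683, 1020 and 1352 to 4217, 3830 and 3257 (1.46 ± 0.28, adjusted p = 0.0199). Nr4a3 and Btg2, both named after their values were seen, rose by 1.03 ± 0.22 (adjusted p = 0.0296) and 0.65 ± 0.15 (adjusted p = 0.0329). The third Nr4a gene, Nr4a2, also named so, had a difference of 0.97 ± 0.29 that did not pass (adjusted p = 0.0904). Calls of Arc, Npas4, Nr4a1, Junb and Fosb were each lost when wild type replicate 2 or ERbetaKO-labelled replicate 1 or 2 was left out.

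**Figure D2:**
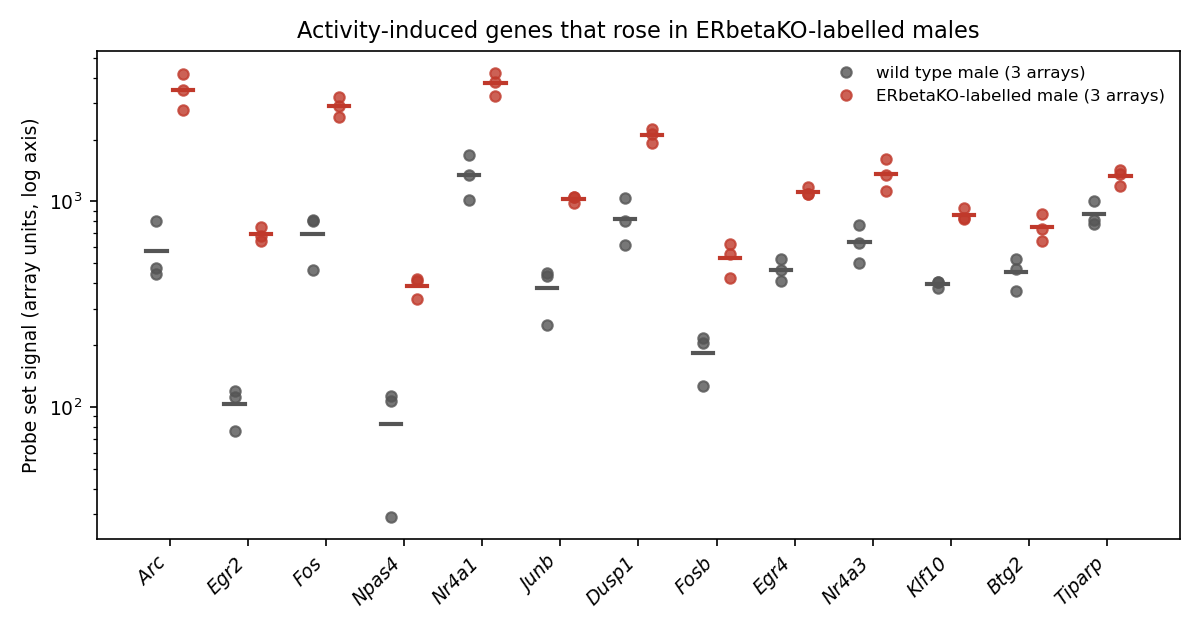
Probe set signal (log axis) of the 13 activity-induced and feedback genes that rose, with 1 point per array and a bar at the mean of each group of 3. No wild type point reaches the lowest ERbetaKO-labelled point of the same gene, and Egr2 shows the widest gap between the groups relative to its level.

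Of 17 tested downstream effectors 2 rose (0.589% of all tested genes did) and none fell. Values lay wholly above those of wild type for 11 of them (13.1% of all tested genes), and the list median was 0.38. The difference between this list and that of the factors was not tested. Arc, a synaptic protein that takes part in AMPA receptor removal, was the largest rise of all genes. Its signals were 799.7, 441.1 and 476.8 in the wild type males and 3471, 4182 and 2788 in the ERbetaKO-labelled males, with no overlap (2.50 ± 0.44, SE, adjusted p = 0.0163). Its call was among those lost without wild type replicate 2. Tiparp, a mono-ADP-ribosyltransferase, went from 1003, 779.5 and 814.2 to 1421, 1195 and 1357 (0.58 ± 0.12, adjusted p = 0.0239). Bdnf, the neurotrophin, and Ptgs2, the inducible cyclooxygenase, had differences of 0.59 ± 0.17 and 0.74 ± 0.23 without overlap that did not pass (adjusted p = 0.0844 and 0.0938). Vgf, Rgs2 and Nptx2 gave -0.13, 0.03 and 0.11 with overlapping groups. These 5 genes were named after their values were seen.

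Of 13 tested feedback genes of the MAP kinase pathway, only Dusp1 passed (1.77% of all tested genes did). This phosphatase inactivates MAP kinases, and its signals were 1044, 799.0 and 614.2 in the wild type males and 2118, 2259 and 1919 in the ERbetaKO-labelled males. Groups did not overlap, and the log2 difference was 1.32 ± 0.15 (SE, adjusted p = 0.000305). Dusp6, named after its values were seen, had a difference of 0.73 ± 0.20 that did not pass (adjusted p = 0.0708). The Spry and Spred genes, inhibitors of the pathway upstream of the kinases, lay between -0.11 and 0.10. The list median was 0.10, and -0.09 under median scaling.

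Stress and hormone-responsive genes were measured beside these lists. Sgk1, a kinase induced by glucocorticoids and other signals, was the member of 14 tested glucocorticoid-responsive genes that rose, from 1796, 1965 and 1264 to 2944, 3514 and 3829 (1.02 ± 0.24, SE, adjusted p = 0.0396). Fkbp5 and Tsc22d3, more specific glucocorticoid targets named after their values were seen, gave 0.07 and -0.13 with overlapping groups. Hspa1b, an inducible heat shock protein, was the member of 14 chaperone genes that rose, from 351.9, 365.8 and 377.2 to 726.1, 650.9 and 675.9 (0.80 ± 0.18, adjusted p = 0.0366). Over all tested genes 0.589% rose. Both lists had medians near that of all genes, 0.15 and 0.08, which turned to -0.03 and -0.11 under median scaling.

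Rises outside these lists included Sf3b3, a subunit of the U2 small nuclear ribonucleoprotein. It went from 676.2, 908.6 and 1266 in the wild type males to 2555, 2592 and 2387 in the ERbetaKO-labelled males, with no overlap (1.39 ± 0.23, SE, adjusted p = 0.0123). Kcnh7, a potassium channel subunit, went from 155.5, 82.5 and 154.9 to 392.9, 424.8 and 346.9 (1.24 ± 0.27, adjusted p = 0.0324). Chrm3, the M3 muscarinic acetylcholine receptor, was dim in wild type, at 67.3, 54.0 and 66.6, against 416.7, 306.8 and 206.0. Its difference of 1.53 ± 0.33 (adjusted p = 0.0302) rests on a wild type mean under the added constant. The predicted gene Gm13306 went from 175.3, 166.1 and 127.0 to 1106, 947.4 and 535.1 (2.03 ± 0.33, adjusted p = 0.0102). Pla2g4e, a cytosolic phospholipase A2 named after its values were seen, was small in spread and went from 173.7, 158.9 and 163.8 to 328.4, 360.1 and 307.1 (0.79 ± 0.13, adjusted p = 0.0102).

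Tmem18, a transmembrane protein of the nuclear envelope whose locus is known from studies of body weight, fell most. Its signals were 924.5, 891.6 and 1003 in the wild type males and 182.5, 212.5 and 260.2 in the ERbetaKO-labelled males. Every ERbetaKO-labelled value lay far under every wild type value, and the log2 difference of -1.84 ± 0.12 (SE) had the smallest adjusted p of all genes, 7.88e-07. Podxl2, the sialomucin endoglycan, went from 2620, 2612 and 2749 to 857.2, 1060 and 1313 (-1.28 ± 0.16, adjusted p = 0.000904). Mboat2, a lysophospholipid acyltransferase named after its values were seen, was tight within groups, at 1591, 1547 and 1564 against 762.4, 810.7 and 771.2 (-0.95 ± 0.13, adjusted p = 0.00339). No array of either group overlapped the other for these 3 genes, and their calls held with any array left out.

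Wdfy1, an endosomal FYVE-domain protein, went from 1184, 865.2 and 1087 to 577.1, 202.0 and 156.7 (-1.72 ± 0.33, SE, adjusted p = 0.0198), and 3 of its 4 other probe sets also fell at an unadjusted p under 0.05. ERbetaKO-labelled replicate 1 was the highest of its group there. Ptpn23, a phosphatase-like protein of endosomal sorting, went from 289.0, 352.7 and 385.7 to 147.4, 111.5 and 30.7 (-1.41 ± 0.29, adjusted p = 0.0248). Ccdc22, part of a complex for endosomal recycling, went from 3021, 3879 and 2758 to 1466, 1480 and 1267 (-1.15 ± 0.22, adjusted p = 0.0195), but its other probe set did not run the same way. Groups did not overlap for any of the 3 genes.

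Other large falls were spread over many functions. Foxo4, a forkhead factor, went from 281.3, 212.6 and 317.0 to 52.1, 118.3 and 53.5 (-1.29 ± 0.27, SE, adjusted p = 0.0273). Zfp423, a zinc finger factor of cerebellar development, went from 449.2, 459.8 and 432.4 to 147.2, 155.6 and 170.3 (-1.21 ± 0.25, adjusted p = 0.0248). Clec2l, a C-type lectin-like protein, went from 830.2, 1381 and 551.0 to 323.5, 402.8 and 145.6 (-1.46 ± 0.28, adjusted p = 0.02). For Clec2l and for Ubash3b, a phosphatase that acts on receptor signalling (-1.05 ± 0.22, adjusted p = 0.0273), wild type replicate 2, the array with the highest Pcp2, was the highest of all 6 arrays, and both calls were lost without it. Fgd6, an exchange factor for Cdc42, and Acot2, a mitochondrial acyl-CoA thioesterase, fell by 1.20 and 1.14 on the log2 scale (adjusted p = 0.0260 and 0.0301), and for neither did another probe set fall. Fgd6 was under the added constant in all ERbetaKO-labelled males, at 52.1, 19.7 and 22.9, and lost its call with any array left out.

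**Figure D3:**
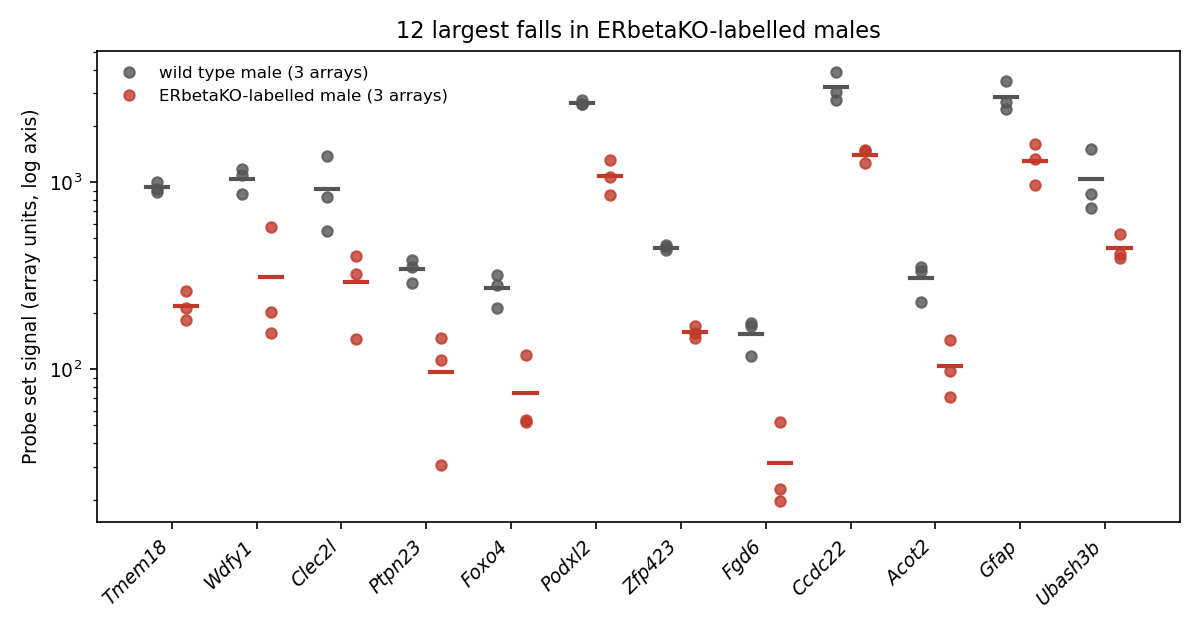
Probe set signal (log axis) of the 12 genes with the largest falls past the threshold, with 1 point per array and a bar at the mean of each group of 3. The 12 were taken only from genes whose groups do not overlap. Tmem18, Podxl2 and Zfp423 have the tightest wild type points, and Clec2l and Ubash3b the widest.

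Gfap, the intermediate filament of astrocytes, was the remaining member of the 12 largest falls. Its signals were 3470, 2472 and 2680 in the wild type males and 961.8, 1609 and 1327 in the ERbetaKO-labelled males. No value overlapped, the log2 difference was -1.12 ± 0.20 (SE, adjusted p = 0.0157), and its other 2 probe sets also had negative differences. Of 16 tested astrocyte markers 2 fell, against 1.18% of all tested genes. The other was Slc7a10, a neutral amino acid transporter (-0.60 ± 0.14, adjusted p = 0.0435, lost without any array other than ERbetaKO-labelled replicate 3). The list median was -0.36 and 15 members were negative, but the glutamate transporters Slc1a2 and Slc1a3, named after their values were seen, gave 0.12 and -0.00 with overlapping groups. Without ERbetaKO-labelled replicate 1, the array with the lowest Gfap, no astrocyte marker was called.

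No marker of the other glial and vascular cell types passed the test. Of 11 myelin genes none passed, 10 of them were negative, and the median was -0.46. Myrf, the transcription factor of myelination, chosen after its values were seen, was 1675, 1780 and 1550 against 644.1, 1137 and 1243 (-0.74 ± 0.31, SE, adjusted p = 0.187), with the lowest value again in ERbetaKO-labelled replicate 1. None of 12 oligodendrocyte lineage genes passed (median -0.39), and the nearest was Lhfpl3 at -0.69 ± 0.18 (adjusted p = 0.0556). Of 13 microglial and complement genes and 14 endothelial and mural genes none passed, with medians of -0.01 and -0.09.

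No regional neuronal marker passed the test, and the regional lists were not tested against each other. Among 16 markers of cortical and hippocampal excitatory neurons 14 were positive, with a median of 0.51 (0.33 under median scaling). Their summed signal was 24076 to 30932 in the wild type arrays and 35078 to 38073 in the ERbetaKO-labelled arrays. Neurod6, a transcription factor of cortical excitatory neurons, chosen after its values were seen, was 1249, 467.6 and 654.8 against 1464, 1270 and 1433 (0.87 ± 0.30, SE, adjusted p = 0.123). Of 12 thalamic markers none passed and 11 were negative (median -0.45), among them Calb2 at -1.60 ± 0.50 (adjusted p = 0.101). The 10 Purkinje cell and 13 cerebellar granule cell markers tested had medians of -0.71 and -0.87 with none called. Without wild type replicate 2 these medians were 0.05 and -0.16. The part that these regional values have in the rises and falls above was not tested beyond fits that differ in their answer. Of the 12 largest rises and 12 largest falls, 12 and 12 stayed past the threshold with a cerebellar score as covariate. With the Actb ratio 6 and 8 stayed. Without any array with Pcp2 under 500 the counts were 4 and 5, and without the 2 such male arrays 4 and 4. With only the groups compared, which takes the spread from these 6 arrays alone, 12 and 4 stayed. That fit kept 30 of the 231 male calls. With the replicate number as a block the counts were 10 and 9.

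**Figure D4:**
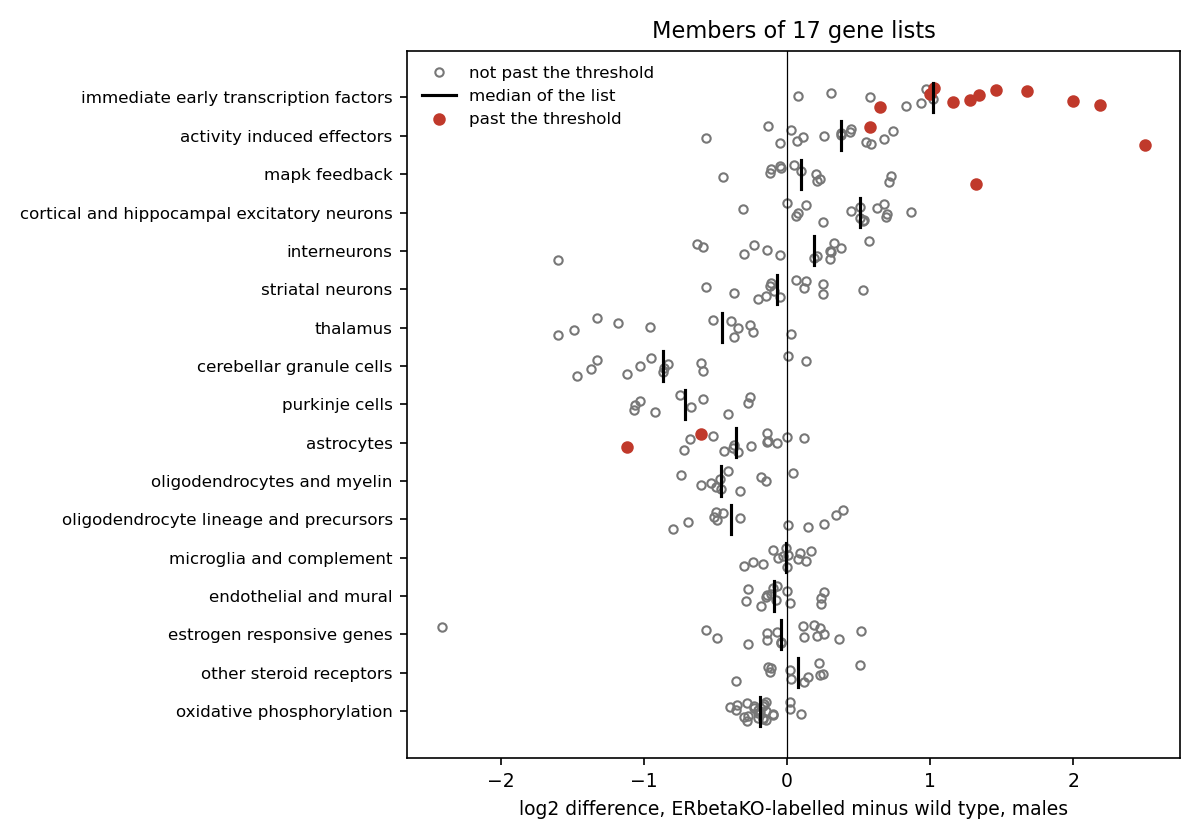
Log2 difference between ERbetaKO-labelled and wild type males for each tested member of 17 gene lists, with filled points past the threshold and a black bar at the list's median. Immediate early transcription factors lie to the right of 0 in all 17 cases, cortical and hippocampal markers in 14 of 16, and cerebellar, thalamic and glial markers lie mostly to the left.

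Esr2 was under the filter on low signal and is not among the genes counted here. None of 5 tested estrogen and estrogen-related receptors, 12 other nuclear hormone receptors, 10 coregulators, 17 estrogen-responsive genes and 8 neurosteroid genes was called, against 1.77% of all genes. Pgr, the progesterone receptor and a classical estrogen target, was 1063, 955.8 and 1004 in the wild type males and 1247, 1286 and 1050 in the ERbetaKO-labelled males, with overlap (0.23 ± 0.16, SE, adjusted p = 0.439). Cyp11a1, which starts steroid synthesis from cholesterol, came nearest, at 202.6, 178.7 and 164.2 against 339.2, 312.7 and 291.8 without overlap (0.62 ± 0.16, adjusted p = 0.0556). Thrb, a thyroid hormone receptor, gave 0.51 with an adjusted p of 0.0810. Prl, the pituitary hormone prolactin, had the largest difference of the estrogen-responsive list, -2.41 ± 1.94, and did not pass (adjusted p = 0.503); it was lower together with Gh.

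Esr2 lies on chromosome 12, and genes beside a targeted locus can keep sequence of the strain used for targeting. Among the 20 annotated genes on each side of Esr2, 15 were tested and none was called; 2 had an unadjusted p under 0.05, and the differences ran from -0.36 to 0.47. Fos, Acot2, Tmem18 and Mboat2 are also on this chromosome, 213, 156, 598 and 669 annotated genes from Esr2. The labels do not say how far sequence of the targeting strain reaches in these mice, and its part in the calls was not tested. Of 7 genes known to vary between mouse substrains or strains, 2 fell (1.18% of all tested genes did). They were Wdfy1, given above, and Gabra2, one of the alpha subunits of GABA-A receptors, at 1464, 1147 and 1837 against 851.9, 779.4 and 691.9 (-0.86 ± 0.19, SE, adjusted p = 0.0305). None of the 7 genes was called with only the groups compared or with the Actb ratio as covariate. The same held without wild type replicate 1 or 3 or ERbetaKO-labelled replicate 2. The other 9 tested GABA-A receptor subunits did not pass.

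The female arrays gave the same contrast in samples that share no array with the male comparison. Their Actb ratio was also higher in the ERbetaKO-labelled arrays, at 1.34, 1.84 and 1.44 against 1.17, 1.19 and 1.22 in wild type. Pcp2 was 9849, 298.6 and 256.0 in the ERbetaKO-labelled females and 6152, 5560 and 116.6 in the wild type females. The part of RNA quality and tissue makeup in what the sexes share was not tested. In the female comparison, 36 genes passed the threshold (0.275% of those tested), 7 higher (0.0535%) and 29 lower (0.222%). Of these, 23 were among the 231 male genes, which is 9.96% of the male list and 63.9% of the female list, and all 23 changed in the same direction. Both comparisons came from the same fit and share each gene's estimate of spread, so the male and female calls are not independent. Fos, Egr2 and Dusp1 were the rises common to both sexes. The 20 common falls included Tmem18, Foxo4, Podxl2, Fgd6, Gfap, Gabra2, Mboat2, Rnf208 and Mt3.

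In the female arrays, 223 of the 231 genes (96.5%) had a difference of the male sign, against 69.5% of all tested genes, and 207 of the 231 had a smaller difference than in males. The male values had chosen these genes, so a smaller value elsewhere follows in part from the choice. Values did not overlap in females, in the male direction, for 148 of the 231, against 6.82% of all genes higher and 7.17% lower. The median female difference was 0.30 for the male rises and -0.35 for the male falls. Fos was 887.6, 871.9 and 713.0 in wild type females and 2591, 2081 and 2212 in ERbetaKO-labelled females, a difference of 1.41 ± 0.17 (SE, adjusted p = 0.00134). Tmem18 was 805.9, 862.4 and 898.4 against 233.3, 154.7 and 178.2, a difference of -1.88 ± 0.12 (adjusted p = 5.80e-07). Neither gene's groups overlapped in females.

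**Figure D5:**
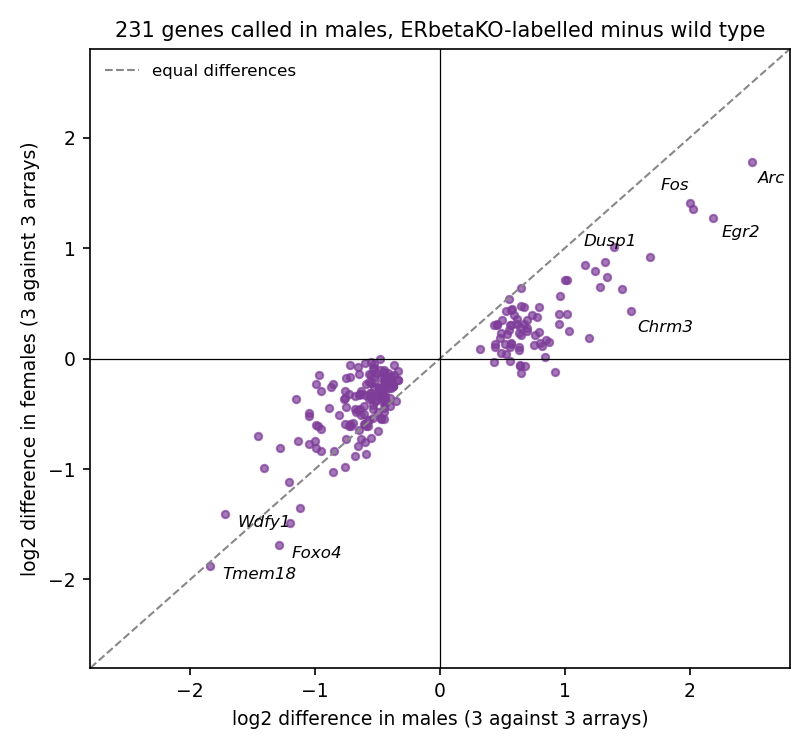
Log2 difference between ERbetaKO-labelled and wild type brains in females (vertical axis) against the same difference in males (horizontal axis) for the 231 genes called in males, which were chosen on the horizontal values. Points lie mostly between the horizontal axis and the dashed line of equal differences; Tmem18 lies next to the line, and 223 of the 231 have the same sign in both sexes.

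The list of immediate early factors had a median of 0.56 in females, with 2 of 17 called and 14 positive. A direct test of the male minus the female difference called no gene of 13072 (0.0%) by limma at the adjusted threshold, with 442 genes (3.38%) at an unadjusted p under 0.05. Fos, Egr2 and Dusp1 had unadjusted p-values of 0.0216, 0.0116 and 0.0460 in this test. The smallest p belonged to Col6a4, a collagen chain. Its signals were 236.3, 284.9 and 214.2 against 306.2, 162.4 and 125.7 in males and 186.3, 127.0 and 167.7 against 426.5, 387.1 and 367.2 in females, with overlapping groups in males and no overlap in females (difference of differences -1.33 ± 0.28, SE, unadjusted p = 0.000222, adjusted p = 1). Next were Snx25, a sorting nexin (0.69, unadjusted p = 0.000612), and 4930442L01Rik (0.76, unadjusted p = 0.000764), each with an adjusted p of 1 in limma.

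The ERalphaKO-labelled males were compared with the same 3 wild type males, so their differences share the wild type values with those above. In that comparison 102 genes passed (0.78%, 0.52% higher and 0.26% lower), and the immediate early factors had a median of 0.96 with 9 of 17 called. Fos reached 3210, 2693 and 3216 in the ERalphaKO-labelled males, within the range of the ERbetaKO-labelled males. Its difference from wild type was 2.07 there and 2.00 in the ERbetaKO-labelled males. Dusp1 likewise gave 1.48 and 1.32. Tmem18, at 899.0, 834.0 and 889.5, was near its wild type level, with -0.10 against -1.84, and Sf3b3 gave -0.07 against 1.39. Wdfy1 and Gabra2 gave -1.38 and -0.80 in ERalphaKO-labelled males and did not pass there (adjusted p = 0.0574 for each). Nnt, a mitochondrial transhydrogenase that varies between C57BL/6 substrains, named after its values were seen, fell in the ERalphaKO-labelled males (-0.81, adjusted p = 0.000818) and gave -0.05 in the ERbetaKO-labelled males (adjusted p = 0.81).

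Set directly against each other, ERbetaKO-labelled and ERalphaKO-labelled males differed in 1034 genes (7.91% of those tested), 658 higher (5.03%) and 376 lower (2.88%) in the former. Under median scaling the split was 325 higher and 1448 lower, and without ERbetaKO-labelled replicate 2 the total was 195. Fos and Dusp1 did not pass in this comparison, with differences of -0.06 (adjusted p = 0.835) and -0.16 (adjusted p = 0.499). Egr2 was 0.81 higher in the ERbetaKO-labelled males (adjusted p = 0.0415). The largest difference was that of Erdr1, a gene at the X and Y pseudoautosomal boundary whose copies are hard to tell apart. The log2 difference was -2.99 (adjusted p = 1.39e-05), and signals lay at 4230, 5607 and 5093 in the ERalphaKO-labelled males against 486.6, 534.0 and 702.0 in the ERbetaKO-labelled males and 375.9, 293.9 and 266.2 in wild type.

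Tmem18 (-1.74, adjusted p = 1.79e-06), Acot2 (-1.5, adjusted p = 0.00666), Fgd6 (-1.33, adjusted p = 0.00940), Podxl2 (-0.92, adjusted p = 0.00666) and Gfap (-0.90, adjusted p = 0.0168) were lower in the ERbetaKO-labelled than in the ERalphaKO-labelled males, and Sf3b3 was higher (1.46, adjusted p = 0.00656). Plcd4, a phospholipase C, Tspan4, a tetraspanin, and Ctxn3, a small membrane protein of the cortexin family, had log2 differences of -1.92, -1.82 and -1.80. Fkbp11, a prolyl isomerase of the secretory pathway, Mroh2a, Lin52, a subunit of the DREAM complex, and Slc7a13, an amino acid transporter, were higher by 1.53, 1.53, 1.5 and 1.42 on the log2 scale. The difference of Lin52 came from the ERalphaKO-labelled side, since it lay at 506.9, 624.8 and 587.6 in the ERbetaKO-labelled and 468.6, 560.2 and 555.3 in the wild type males.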

How the data were processed

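Signal intensity per probe set was computed by the authors with MAS5, per the submitters' processing notes, and deposited on a linear scale; the 2% trimmed mean was 500 on every array. Of 45037 probe sets other than controls, 34945 named 1 gene, 932 several and 9160 none. Each gene was read by its probe set with the highest mean over all 18 arrays. Testing was limited to genes whose mean level reached the 40th percentile. Log2(intensity + 63.63), the constant being the 25th percentile of all values, entered a model of group means (limma 3.58.1, R 4.3.3) over the 18 arrays with an intensity trend (12 residual degrees of freedom), and p-values were adjusted by Benjamini-Hochberg over all genes tested at a threshold of 0.05. Errors are SEs of this fit unless marked SD. The steps were tested on simulated data with noise independent between genes. Tissue and RNA differences that many genes share were not simulated. The simulation therefore does not give the rate of false calls in these arrays. The number of arrays limits the precision.

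Genes named were the 12 largest rises and 12 largest falls past the threshold with values that did not overlap, the members of fixed lists past the threshold or nearest to it, the largest differences between knockouts and the smallest p-values between sexes; others are marked as chosen after their values were seen or illustrate a list. The comparison, its members and the 34 lists were chosen with earlier results of these data known. Promoter windows came from RefSeq (GRCm38.p6) and run from 250 bases before to 50 after a start. Alternatives changed the constant, filter, probe set choice, scaling, trend, weights, arrays and covariates; the covariate fits, array weights and removals by Pcp2 are compared in the closing section. Exact permutation tests were two-sided.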

Additional observations from a re-analysis of the deposited data

Results flagged for a closer look

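The main gene comparisons did not use the 3-prime to 5-prime ratio of the Actb control probe sets. It entered only as a covariate in alternative fits. The ratio lay between 1.36 and 1.47 in the ERbetaKO-labelled males, above all 3 wild type males (1.18 to 1.23). The same ratio for pyruvate carboxylase ran the other way, at 2.04 ± 0.0306 against 2.55 ± 0.0379 (SD, n = 3 each). Among probe sets that name no single gene, 92 of 10092 passed the threshold when all probe sets were fitted (0.912%, 76 higher and 16 lower), against 341 of all 45037 (0.757%).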

How the results depend on the processing

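All 24 of the largest rises and falls kept their direction in every alternative that tested them. They were chosen for large differences without overlap, so leaving out arrays could not change their direction. The count of 231 male calls became 1456 with median scaling, 1293 with array weights, 40 with only the groups compared, 467 with a cerebellar score as covariate, 114 with the Actb ratio as covariate, 22 without any array with Pcp2 under 500 and 10 without the 2 such male arrays (a removal chosen after seeing the data); leaving out 1 array gave 26 to 295. The 1034 calls against ERalphaKO-labelled males became 1921 with all probe sets, 1773 with median scaling, 629 with a filter at the 60th percentile (51.7% of them higher), 4052 with array weights, 448 with the Actb ratio, 485 and 361 without those arrays, and 195 to 997 with 1 array left out. The male minus female count ran from 0 to 2 (Casz1 and Nfkbib without wild type male replicate 2, and Col6a4 without ERbetaKO-labelled male replicate 1). The share of male calls that were higher was 33.3%, 4.12% with median scaling and 53.1% with all probe sets. The cause of these shifts was not tested.

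With the replicate number as a block, 130 male genes were called, 110 of them among the 231. Same-numbered arrays correlated at 0.089, 0.167 and 0.071, so the numbers were not taken to pair the samples; every array correlated best with its own number, which is a hint from the data and not from the design.

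Signs reversed for values that had not passed. The dimmest Esr1 probe set gave 0.15 with a constant of 1, 0.14 with the Actb ratio, and -0.20 to 0.10 with 1 array left out. With the Actb ratio Pgr gave -0.02, Alas2 0.15 and Kdm5d -0.19. With median scaling P2ry12 gave -0.01 and Lin52 -0.07. Gal gave 0.02 in both removals by Pcp2. With 1 array left out Ttr ran from -0.11 to 2.10 and Calb1 from -0.63 to 0.02.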

Other observations

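The falls common to both sexes included genes of several functions, named after their values were seen. Mt3, a metallothionein of the brain that binds zinc and copper, fell by 0.76 in males (adjusted p = 0.0293) and by 0.98 in females (adjusted p = 0.0132) on the log2 scale. Cygb, the haem protein cytoglobin, fell by 0.66 and 0.79 (adjusted p = 0.0435 and 0.0467), and Spock2, an extracellular matrix proteoglycan, by 0.55 and 0.72 (adjusted p = 0.0293 and 0.0132). Ring1, a Polycomb ubiquitin ligase, fell by 0.50 and 0.66 (adjusted p = 0.0208 and 0.0101), and Irak1, a kinase of Toll-like receptor signalling, by 0.59 and 0.86 (adjusted p = 0.0484 and 0.0132).

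Of 25 oxidative phosphorylation genes none passed in males, 22 were negative, and the median was -0.19. It was -0.38 with 5 genes called lower under median scaling, and -0.30 with 4 called lower without ERbetaKO-labelled male replicate 3. Of 16 cytosolic ribosomal protein genes none passed, and the median was -0.13.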
